A study of Sus scrofa with 15 samples.

Results

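The loci described here are the pig gene models whose symbol is LOC110 followed by digits, which means that the annotation predicted the gene from genome and RNA evidence and gave it no approved name. A locus was kept where its normalised read count averaged at least 10 over the 12 libraries of embryos made by somatic cell nuclear transfer (SCNT). Of 4732 LOC110 entries in the table, 1227 met this limit. In all, 18942 of 43294 features met it. The members were thus chosen by their measured level in embryos, so that level is given only as a description.

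Each library of embryos was made from a pool of 30 embryos, and 3 libraries per group were analysed. SCNT embryos are made by placing a donor nucleus, here from primary pig fetal fibroblasts (PFF) at passage 2 to 5, into an oocyte without its own nucleus. The groups were untreated embryos at the 4-cell stage (SCNT4c) and at the 8-cell stage (SCNT8c), 2 treated groups at the 4-cell stage, and the donor PFF. SCNT4c-KG embryos were injected 5 h after activation with 1000 ng/µl of mRNA for KDM4A, which removes methyl groups from lysine 9 of histone H3. Until 48 h they were also kept in 0.1 µM GSK126, which blocks EZH2, the enzyme that methylates lysine 27 of that histone. SCNT4c-TDG embryos came from donor cells transfected with a doxycycline-inducible TDG vector and selected with puromycin, and doxycycline was present at 500 ng/ml between 40 and 72 h. TDG is a DNA glycosylase that acts in active DNA demethylation. No library with doxycycline alone was analysed here, so doxycycline, selection and TDG cannot be told apart. Nor was one with a mock injection, KDM4A mRNA alone or GSK126 alone, so injection, KDM4A and GSK126 cannot be told apart in SCNT4c-KG. SCNT4c libraries are called a, b and c, since the labels number them in conflicting ways.

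Most members are long noncoding RNAs (lncRNAs), transcripts that are spliced and often polyadenylated but have no long reading frame. Oocytes and early embryos are known to carry many such RNAs, some stored by the oocyte and others made when the embryonic genome is switched on, often from promoters inside repeats. Maternal RNAs are removed over the first cleavages while the embryo's own genes become active, so a transcript's level at the 4-cell stage can reflect either pool. Pseudogenes and young copies of gene families form the rest of such predicted entries, and reads from close copies are hard to place.

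By annotation, 914 of the 1227 members were lncRNA, 199 were protein-coding and 112 were pseudogenes, of which 10 were listed as transcribed. The other 2 were variable segments of immune receptor genes. All 914 lncRNA products, and 56 of the protein-coding ones, were listed as uncharacterised. The lncRNA members had a median transcript length of 2154 bases and a median of 3 exons. None had a single exon, but 290 had 2. A median protein-coding gene outside LOC110 at this level had 9 exons. Chromosomes 6 and 1 held 112 and 111 members, X held 50 and Y held 15. Another annotated gene overlapped 505 of the members, 360 of them on the opposite strand only. Because the strand setting of the counting is not stated in the sources used here, reads of overlapping genes cannot be told apart.

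The promoter windows of 6 members are shown, each from 250 bases before to 50 bases after the annotated start, in the Sscrofa11.1 build and read from the RefSeq genome. They are the second most abundant member, the largest fall and the largest rise in SCNT4c-KG on the log2(value + 1) scale, a pair of neighbours that rose in SCNT4c-TDG, and the most abundant histone gene of the set. Capitals mark the TATA box (TATAAA), the CCAAT box (CCAAT), the core of an Sp1 site (GGGCGG) and a palindromic E-box (CACGTG), each sought on both strands.
LOC110260131 (chr3:31304497-31304796, plus strand): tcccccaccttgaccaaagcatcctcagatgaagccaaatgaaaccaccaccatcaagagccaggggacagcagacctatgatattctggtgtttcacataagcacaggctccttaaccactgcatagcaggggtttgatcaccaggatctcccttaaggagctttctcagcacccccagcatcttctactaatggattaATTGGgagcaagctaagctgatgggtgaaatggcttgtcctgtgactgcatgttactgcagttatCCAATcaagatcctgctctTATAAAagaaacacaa
LOC110260860 (chr5:69584766-69585065, plus strand): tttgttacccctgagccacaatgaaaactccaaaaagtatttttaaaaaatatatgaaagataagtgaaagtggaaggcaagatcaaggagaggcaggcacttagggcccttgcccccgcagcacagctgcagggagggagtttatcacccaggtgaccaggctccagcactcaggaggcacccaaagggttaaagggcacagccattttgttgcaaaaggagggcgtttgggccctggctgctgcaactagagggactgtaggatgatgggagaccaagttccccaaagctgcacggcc
LOC110262272 (chr1:187670777-187671076, minus strand): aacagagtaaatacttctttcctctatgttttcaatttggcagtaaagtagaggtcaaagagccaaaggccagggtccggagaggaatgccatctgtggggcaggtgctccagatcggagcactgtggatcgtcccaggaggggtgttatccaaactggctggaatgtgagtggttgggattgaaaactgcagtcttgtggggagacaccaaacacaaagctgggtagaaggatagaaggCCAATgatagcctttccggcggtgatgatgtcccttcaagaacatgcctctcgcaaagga
LOC110257338 (chr16:27700049-27700348, plus strand): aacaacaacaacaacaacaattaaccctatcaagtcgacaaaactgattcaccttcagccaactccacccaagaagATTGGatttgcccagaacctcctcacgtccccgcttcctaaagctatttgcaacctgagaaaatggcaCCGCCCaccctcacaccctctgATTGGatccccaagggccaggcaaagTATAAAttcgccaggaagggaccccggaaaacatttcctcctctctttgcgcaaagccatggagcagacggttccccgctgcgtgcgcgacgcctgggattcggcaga
LOC110257337 (chr16:27694343-27694642, plus strand): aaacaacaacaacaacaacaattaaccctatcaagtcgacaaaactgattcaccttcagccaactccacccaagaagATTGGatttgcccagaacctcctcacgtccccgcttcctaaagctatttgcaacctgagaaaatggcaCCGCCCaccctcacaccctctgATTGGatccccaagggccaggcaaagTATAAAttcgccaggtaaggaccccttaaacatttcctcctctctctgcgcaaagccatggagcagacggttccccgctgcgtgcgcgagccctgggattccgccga
LOC110261483 (chr7:20730417-20730716, minus strand): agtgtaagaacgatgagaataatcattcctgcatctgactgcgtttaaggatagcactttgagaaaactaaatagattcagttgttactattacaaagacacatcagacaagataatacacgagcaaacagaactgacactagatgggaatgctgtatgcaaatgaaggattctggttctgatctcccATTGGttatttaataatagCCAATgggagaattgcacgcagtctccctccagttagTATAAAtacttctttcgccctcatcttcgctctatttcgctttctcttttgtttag
In these windows LOC110260860 held none of the 4 motifs, and LOC110262272 held a single CCAAT. LOC110260131, both windows of the pair and LOC110261483 held TATAAA on the printed strand.

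The start of transcription lay in masked repeat sequence for 40.4% of the members, 42.0% of the lncRNA members, 33.6% of 998 other lncRNAs at this level and 15.6% of 10303 other protein-coding genes. GGGCGG, the core of an Sp1 site, stood in 22.7% of the members' windows and in 41.4% of all 27820 annotated promoters. For CCAAT the shares were 40.4% and 35.6%, for TATAAA 15.6% and 12.5%, and for CACGTG 4.56% and 7.03%. The median ratio of observed to expected CpG was 0.342 in the members, 0.533 in the other lncRNAs, 0.738 in the other protein-coding genes at this level and 0.524 over all annotated promoters. A match of this kind is a description of letters and not a bound site.

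The level of the members ranged from 10.03 to 46435, with a median of 34.5 against 70.7 over all features that met the limit. A normalised read count is a number of reads scaled by library, which allows comparison of a locus across libraries but not of loci that differ in length. Among embryos, the SCNT4c-KG libraries were the shallowest, at 12354649 to 15390472 reads, and SCNT4c the deepest, at 20460653 to 22530486. KDM4A was at 1429 to 1476 in SCNT4c-KG against 134 to 313 in SCNT4c, and TDG at 49857 to 59944 in SCNT4c-TDG against 939 to 2541. Each target was also above every SCNT4c library in the other treatment, KDM4A at 555 to 918 in SCNT4c-TDG and TDG at 3886 to 4738 in SCNT4c-KG. The 10 fibroblast markers summed to 3864950 to 4097690 in PFF. In embryos they summed to 4263 to 5460 in SCNT4c, 2485 to 3612 in SCNT4c-KG, 1626 to 2153 in SCNT4c-TDG and 2155 to 2448 in SCNT8c. VIM, THY1 and POSTN went the other way in SCNT4c-KG, with SCNT4c means of 482, 106 and 13.5 against 1380, 700 and 25.2. The 10 oocyte and early embryo markers summed to 212683 to 240479 in SCNT4c, 66991 to 110259 in SCNT4c-KG, 29008 to 32364 in SCNT4c-TDG and 56617 to 147802 in SCNT8c. KPNA7, ZP4 and PADI6 carried most of that sum. BTG4, ZP3 and OOEP went the other way, with SCNT4c means of 1529, 28.1 and 708 against 5926, 667 and 1406 in SCNT4c-KG and 3293, 74.6 and 795 in SCNT4c-TDG. GDF9 and BMP15, which define the oocyte, were at 0 in all libraries of embryos. Of the 7 cumulus markers listed, PTX3 and AMH were at 0 in the embryos. The sum of the list was 1378 to 1802 in SCNT4c, 766 to 869 in SCNT4c-KG and 457 to 575 in SCNT4c-TDG. It was 1328 to 1923 in SCNT8c and 553 to 619 in PFF. INHBA carried most of it, with means of 1412 in SCNT4c, 673 in SCNT4c-KG, 486 in SCNT4c-TDG, 1487 in SCNT8c and 492 in PFF. TNFAIP6 went the other way in SCNT4c-KG, at 137 against 79.3 in SCNT4c. The markers' part in the results below was not tested.

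Reads on the members made up 3.09 to 3.17% of each SCNT4c library, 1.28 to 1.57% in SCNT4c-KG and 1.60 to 2.16% in SCNT4c-TDG. In PFF they made up 0.184 to 0.192%. Other annotated lncRNAs followed the same course, at 3.01 to 3.35%, 1.76 to 1.88% and 1.67 to 1.92%, and so did assembled transcripts without annotation, at 10.8 to 12.2%, 6.46 to 7.41% and 6.82 to 7.57%. One library stood apart from its group. SCNT8c library 3 had 3.04% of its reads on the members, close to SCNT4c, while libraries 1 and 2 had 1.55% and 1.08%. Its oocyte marker sum, 147802, was also the highest of the SCNT8c group, against 80685 and 56617. The counts and the median of SCNT8c are therefore given with and without it, and all 73 of its calls passed without it in the same direction. The labels do not state that the libraries of a group came from separate experiments, so p-values may measure technical spread only.

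**Figure D1:**
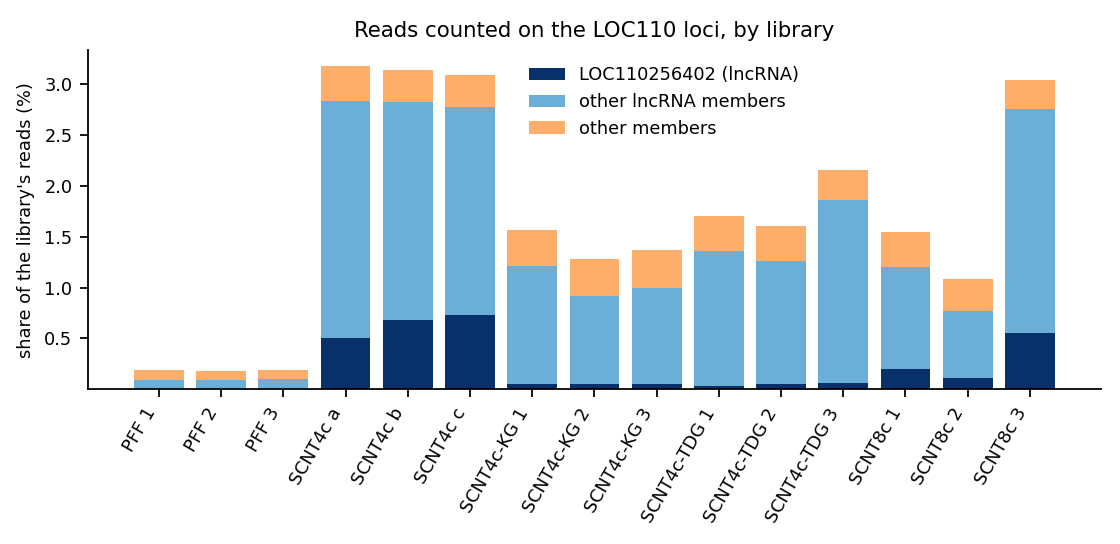
Share of each library's reads (percent, y axis) counted on the 1227 LOC110 loci in the 15 libraries (x axis), stacked as the single lncRNA LOC110256402, the other lncRNA members and the remaining members. The 3 SCNT4c libraries and SCNT8c library 3 stand between 3.04 and 3.17%, and the other embryo libraries between 1.08 and 2.16%.

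The single most abundant member was LOC110256402, a lncRNA of 3 exons on the minus strand of chromosome 13 (chr13:133534383-133542718). Its values were 90447, 122059.6 and 136093 in SCNT4c, 9789.6, 10252 and 9482 in SCNT4c-KG, 5574, 7194 and 9721 in SCNT4c-TDG and 32945, 18649 and 105014 in SCNT8c. Both treated groups lay below every SCNT4c library, and SCNT8c library 3 lay inside the SCNT4c range. The difference was -3.54 ± 0.45 (SE) on the log2 scale in SCNT4c-KG (limma, adjusted p = 3.17e-05) and -3.97 in SCNT4c-TDG (adjusted p = 1.27e-05). In PFF it was almost absent, at 12.2, 5.09 and 9.53. Alone it took 0.509 to 0.734% of the reads of SCNT4c. Its nearest gene on the same strand, FBXO45, which encodes an F-box protein of a ubiquitin ligase, lies 2197 bases away and was higher in SCNT4c-TDG (log2 fold change 1.98, adjusted p = 0.00243) and in SCNT8c (1.95, adjusted p = 0.0254), but did not pass in SCNT4c-KG (0.76, adjusted p = 0.168).

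LOC110260131, a lncRNA of 2 exons on chromosome 3 (chr3:31304747-31307410), was the second most abundant and moved the other way. It stood at 1499, 2198 and 1278 in SCNT4c against 532, 207 and 1348 in SCNT8c, but at 61677, 32941 and 22979 in SCNT4c-KG and 84999.7, 48296 and 111835 in SCNT4c-TDG. Every treated library exceeded every untreated one. The rises were 4.48 ± 0.55 (SE) and 5.58 on the log2 scale (adjusted p = 2.11e-05 and 3.28e-06). The treated groups themselves did not differ beyond their spread (adjusted p = 0.19). PFF had 4 reads of it in all.

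Of the other 8 members with the highest means, 7 were lncRNAs and 6 of those fell in 1 or both treated groups. LOC110261584 (chr7:73844506-74179541) stood at 19087, 19232 and 23905 in SCNT4c against 1870.4, 1345 and 2186 in SCNT4c-KG. LOC110256311 (chr13:87055194-87084267) stood at 13037, 17706 and 22391 and 1305, 1022 and 1757. LOC110260700, LOC110259474, LOC110261584 and LOC110256311 fell in both treated groups, by 1.67, 2.28, 3.55 and 3.70 on the log2 scale in SCNT4c-KG. LOC110260341 and LOC110260145 fell in SCNT4c-TDG but did not pass in SCNT4c-KG, and both were lower in SCNT4c-TDG than in SCNT4c-KG (adjusted p = 0.0385 and 0.0017). LOC110260145 lies 73 bases from FEZ2 on the same strand, and FEZ2, which encodes a protein linked to axon bundling, fell in SCNT4c-TDG (log2 fold change -2.49, adjusted p = 0.000228) and also in SCNT4c-KG (-1.81, adjusted p = 0.00237), where LOC110260145 did not pass. LOC110256260 did not pass in any comparison, with means of 16488 ± 1336 (SD, n = 3) in SCNT4c and 9287 ± 2199 in SCNT4c-KG. The one protein-coding locus in this top group, LOC110261380, is named zinc finger imprinted 3-like. It rose in SCNT4c-TDG, from 2204, 3014 and 5832 to 10773, 12047 and 7319 (adjusted p = 0.0114).

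**Figure D2:**
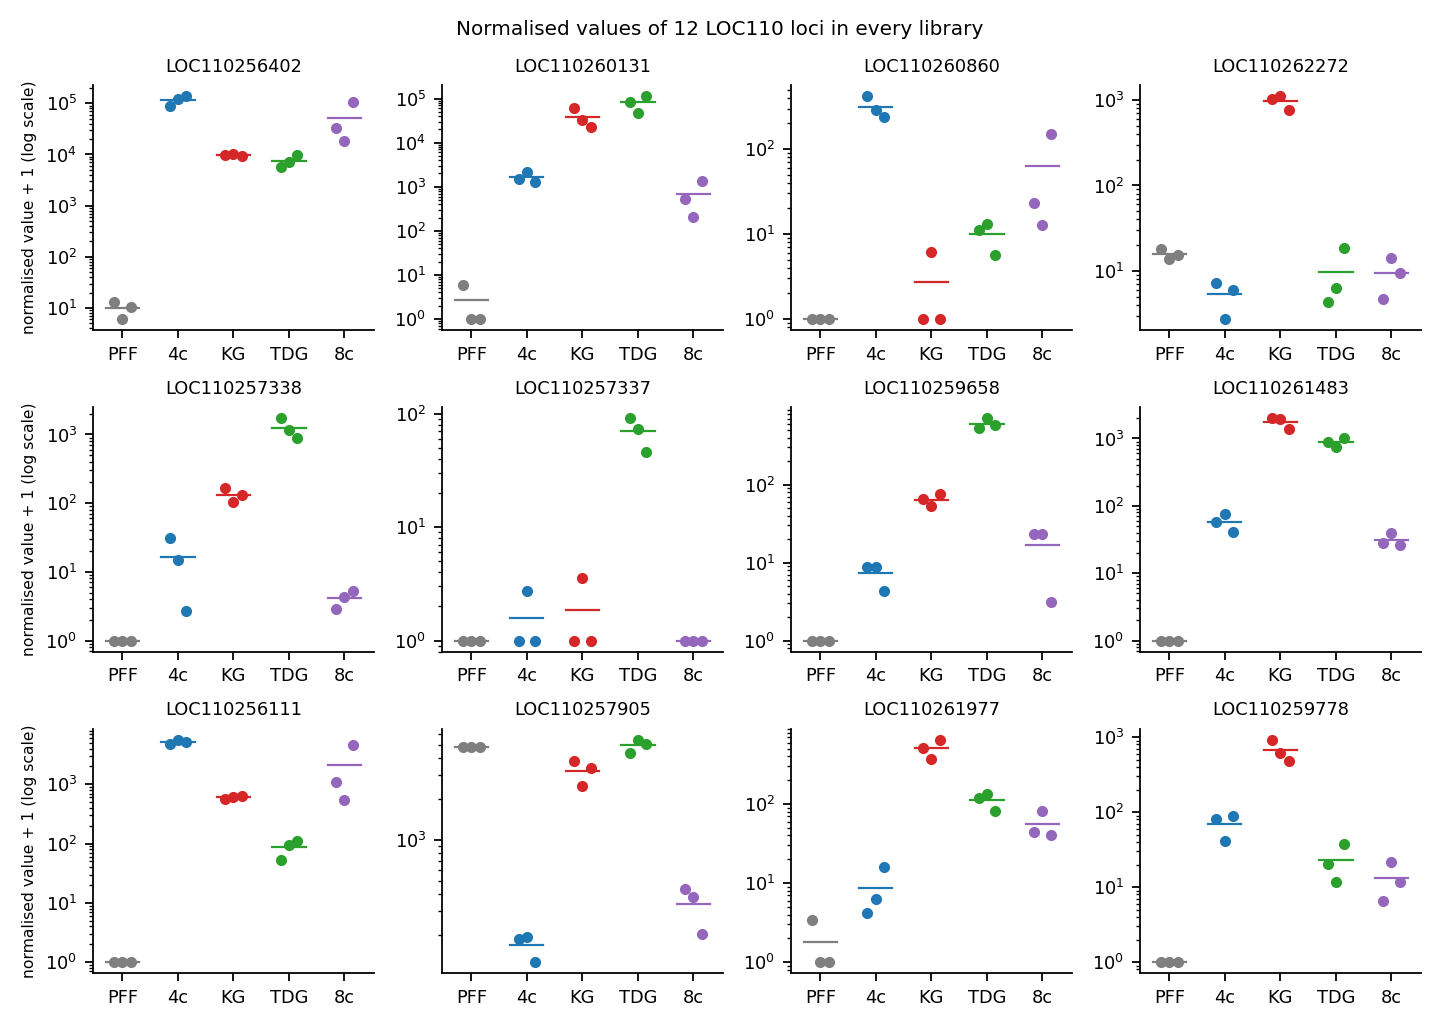
Normalised value plus 1 (y axis, log scale) of 12 LOC110 loci in PFF, SCNT4c (4c), SCNT4c-KG (KG), SCNT4c-TDG (TDG) and SCNT8c (8c), with 1 point per library and a line at the mean of 3. The y range differs between panels. LOC110256402 and LOC110256111 are highest in SCNT4c, LOC110262272 and LOC110259778 are highest in SCNT4c-KG, and LOC110257338, LOC110257337 and LOC110259658 are highest in SCNT4c-TDG.

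The first comparison asks which members differ after KDM4A mRNA and GSK126. Between SCNT4c-KG and SCNT4c, 110 of 1227 members were higher and 289 were lower at an adjusted p under 0.05 and a fold above 2. Over all 18942 features, 17.6% were higher and 19.6% were lower by the same test, while the members' shares were 8.97% and 23.6%. The median log2 fold change was -0.92 in the members and -0.30 over all features. The falls came mainly from lncRNAs, of which 230 of 914 fell and 54 rose (median -1.11). Protein-coding members split evenly, with 36 higher and 38 lower of 199, and pseudogenes had 19 higher and 21 lower of 112. The 999 annotated lncRNAs outside LOC110 had 106 higher and 224 lower (median -0.81). Of the 90 members with a mean of at least 500, 51 fell and 11 rose, while 31.5% and 28.3% of the 3928 features at that level did. Without SCNT4c library a 182 members fell, and without library b 186 did.

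Members that met the limit through 1 group alone had to differ between groups, which bears on these counts. In 37 members only the SCNT4c mean reached 10, and in 18, 8 and 7 only SCNT4c-KG, SCNT4c-TDG or SCNT8c did. The mean was at least 10 in all 4 groups for 663 members. Among loci named here, LOC110262272, LOC110262006, LOC110256866, LOC110255769, LOC110261273 and LOC110261668 reached 10 in SCNT4c-KG alone, LOC110257337, LOC110256444, LOC110259424 and LOC110257342 in SCNT4c-TDG alone, and LOC110260458, LOC110257008 and LOC110256049 in SCNT4c alone. Their values are given as a description, without a p-value, and the intervals beside some of them cover counting error only. In bulk pools, fewer cells with a transcript and less of it per cell cannot be told apart.

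**Figure D3:**
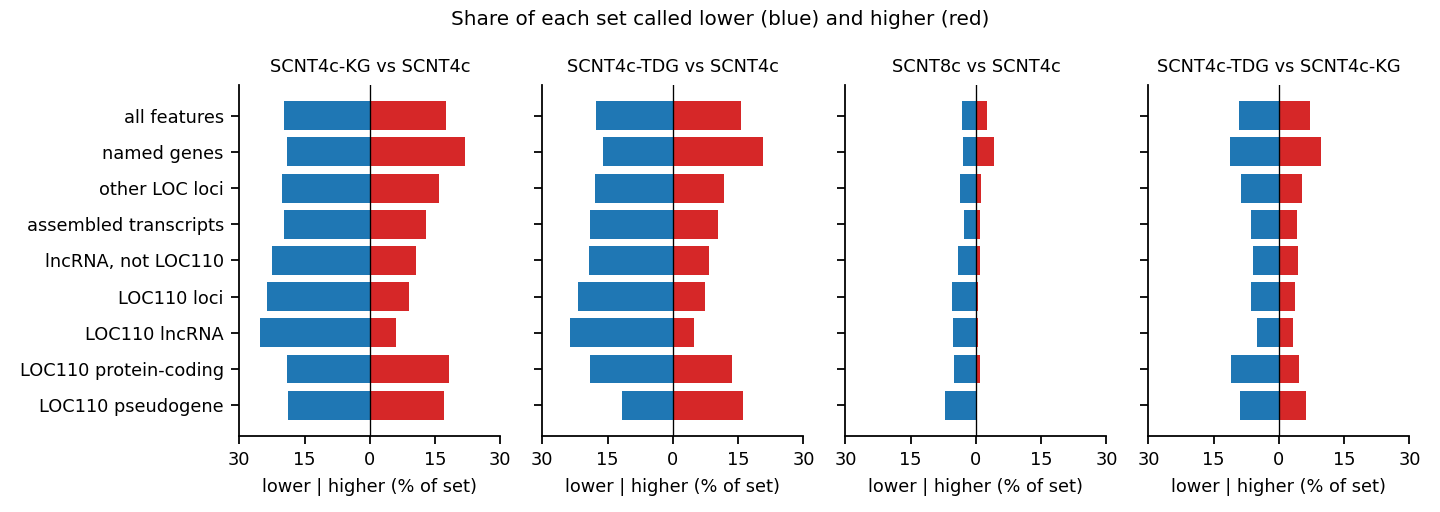
Share (percent of each set, x axis) of features called lower (left, blue) and higher (right, red) in the 4 comparisons, for all features tested, 4 other sets and the LOC110 loci with their 3 annotated types (y axis). LOC110 lncRNAs have the lowest share of rises in SCNT4c-KG (54 of 914) and SCNT4c-TDG (44 of 914) among the sets drawn.

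On the log2(value + 1) scale the member with the largest fall in SCNT4c-KG was LOC110260860, a lncRNA on chromosome 5 (chr5:69585016-69591573). Its values were 415, 285 and 234 in SCNT4c against 0, 5.08 and 0 in SCNT4c-KG, where 4 reads were counted over the group. SCNT4c-TDG had 10, 12.3 and 4.59 and SCNT8c 22.4, 11.6 and 150.0, with library 3 the highest of that group, and all of these lay below SCNT4c. The fitted difference was -7.38 ± 1.0 (SE) in log2 (adjusted p = 5.93e-05). With a pseudocount of 0.1 it was -9.67, and LOC110257662 and LOC110257936 were lower still, at -10.58 and -10.26. Over the 12 embryo libraries the features with the most similar profile were an assembled transcript (r = 0.977), LOC102166247 (0.967), STARD3NL (0.962), SFMBT1 (0.961) and PHF11 (0.956). These correlations are descriptive, and the libraries share their groups. All 5 were highest in SCNT4c, with SCNT4c means from 1674 to 13134.

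LOC110257662, a lncRNA on X (chrX:117306445-117343862), had 194, 130.2 and 142 in SCNT4c against 0 in all 3 libraries of SCNT4c-KG. Set against a floor of 3 reads over the group, it was at least 108-fold lower (adjusted p = 0.000559). Another LOC110 entry overlaps it on the same strand, so the reads of both cannot be told apart. LOC110257936 on Y (chrY:6985633-6999844), named putative GTP-binding protein 6, had 159, 108 and 107 in SCNT4c against 0 in all 3 libraries of SCNT4c-KG. It was at least 86.6-fold lower (adjusted p = 0.000714). In SCNT4c-TDG it was at 2.51, 0 and 1.53, again below all SCNT4c libraries (adjusted p = 0.00256).

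LOC110261475 lies across the opposite strand of SLC17A2, a member of a family of phosphate and organic anion carriers, on chromosome 7 (chr7:20661142-20672682). It had 229.5, 358 and 252 in SCNT4c against 6.53, 0 and 1.42 in SCNT4c-KG (log2 fold change -6.71 ± 0.94, adjusted p = 7.45e-05). SLC17A2 fell too, by 2.47 on the log2 scale. The fifth of the largest falls, LOC110261431, had 117, 106 and 70.6 in SCNT4c and a single read in SCNT4c-KG, a ratio of 231-fold (95% counting interval 41.4 to 9121).

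The largest rise in SCNT4c-KG on the same scale was LOC110262272, a single-exon gene named 40S ribosomal protein S27-like on chromosome 1 (chr1:187670467-187670826). It had 6.31, 1.75 and 4.98 in SCNT4c, 1019, 1098 and 767 in SCNT4c-KG, 3.34, 5.37 and 17.6 in SCNT4c-TDG and 3.73, 13.3 and 8.45 in SCNT8c. SCNT4c-KG thus lay far above the other 3 embryo groups, which overlapped (log2 fold change 7.59). With a pseudocount of 0.1 it was 7.92, below LOC110256866 at 9.57 and LOC110261945 at 8.59. RPS27 itself, the gene of that ribosomal protein, had means of 894 in SCNT4c and 30212 in SCNT4c-KG. Reads of a close copy can be counted on such an entry, so the locus of origin is uncertain.

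LOC110261945, LOC110262006 and LOC110261946 lie within 52 kb of each other on chromosome 8 and are each named putative tripartite motif-containing protein 75, of a family of ubiquitin ligases. LOC110261945 had 0.789, 0.874 and 0 in SCNT4c against 165, 141 and 211 in SCNT4c-KG, a ratio of 311-fold (95% counting interval 86 to 2566) over 2 reads in SCNT4c. LOC110262006 had 11.8, 4.37 and 1.66 in SCNT4c, and SCNT4c-KG was higher in every library, at 173, 239 and 189.5. LOC110261946 was at 351, 73.4 and 39.9 and 214, 509 and 430.3, which overlapped and did not pass (adjusted p = 0.0767). LOC110261945 and LOC110261946 were lower in SCNT4c-TDG than in SCNT4c-KG (adjusted p = 0.0189 and 0.0481).

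The remaining largest rises were noncoding. LOC110256866, a pseudogene inside PITPNM2 on the opposite strand (chr14:29768938-29772999), had 0 in all 3 libraries in SCNT4c against 65.3, 85 and 78.4 in SCNT4c-KG. It was at least 91.8-fold higher, while PITPNM2 did not pass (log2 fold change 0.58, adjusted p = 0.376). LOC110261977, a lncRNA on chromosome 8 (chr8:67832162-67832764), rose from 3.15, 5.24 and 14.9 to 506, 374 and 651 (log2 fold change 6.07 ± 0.61, adjusted p = 3.13e-06). It overlaps SLC4A4, a bicarbonate carrier gene, whose level did not pass (log2 fold change -0.13). LOC110257896, a lncRNA on Y (chrY:10380563-10385567), stood at 1.58, 3.5 and 1.66 in SCNT4c, 108, 327 and 157 in SCNT4c-KG and 285, 245 and 265 in PFF (log2 fold change 5.83 ± 0.65, adjusted p = 9.83e-06).

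The second comparison asks which members differ with induced TDG. Between SCNT4c-TDG and SCNT4c, 90 members were higher and 267 were lower, against 15.7% and 17.6% of all features. As shares of the members these are 7.34% and 21.8%. The median log2 fold change was -0.98 in the members and -0.26 over all features. Of the 914 lncRNAs, 44 rose and 216 fell. The 999 annotated lncRNAs outside LOC110 had 84 higher and 193 lower (median -0.69). Of 199 protein-coding members, 27 rose and 38 fell, and of 112 pseudogenes 18 rose and 13 fell. The 90 members with a mean of at least 500 had 58 falls and 8 rises, while 30.5% of the 3928 features at that level fell and 26.1% rose. Without SCNT4c library b the falls were 178, and without SCNT4c-TDG library 1 or 2 the rises were 60 and 57. Both this comparison and the first use the same SCNT4c libraries, so their likeness is not a separate result.

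The largest rise in SCNT4c-TDG on the log2(value + 1) scale was in LOC110257338, a single-exon gene on chromosome 16 (chr16:27700299-27700859) named annexin-2 receptor-like. It had 30, 14 and 1.66 in SCNT4c, 165, 102 and 131 in SCNT4c-KG, 1734, 1164 and 877 in SCNT4c-TDG and 1.87, 3.33 and 4.23 in SCNT8c (log2 fold change 6.82 ± 0.78, adjusted p = 1.41e-05). Every SCNT4c-TDG library exceeded every other library, PFF included, where none was counted. With a pseudocount of 0.1 its difference was 7.06, below LOC110256946 at 9.56, LOC110256444 at 9.10 and LOC110262090 at 8.43. Its neighbour LOC110257337 (chr16:27694593-27695135), 5164 bases away on the same strand and with the same product name, had 90.3, 72.9 and 45.1 in SCNT4c-TDG and 2 reads in each of SCNT4c and SCNT4c-KG. That is a ratio of 119-fold (95% counting interval 33 to 984) to SCNT4c. Aligned end to end, the annotated bodies of the pair were 90.4% identical and the promoter windows shown above 96.3%, so some reads may be placed on either.

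LOC110259658 on chromosome 2 (chr2:72012792-72013506) is named putative methyl-CpG-binding domain protein 3-like 5, of a family related to readers of methylated DNA. It rose from 7.89, 7.86 and 3.32 in SCNT4c to 533, 715 and 577 in SCNT4c-TDG (log2 fold change 6.44 ± 0.77, adjusted p = 2.07e-05). SCNT4c-KG lay between, at 63.7, 52 and 74.1, and also passed against SCNT4c (adjusted p = 0.00481). LOC110262090, a zinc finger gene on chromosome 8, had 3 reads in SCNT4c against 103, 87.4 and 125 in SCNT4c-TDG, a ratio of 120.2-fold (95% counting interval 41.1 to 583).

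LOC110256946, a lncRNA overlapping GTDC1 and LOC106508109 on chromosome 15, was at 0 in all 3 libraries of SCNT4c and at 66.9, 76.7 and 82.6 in SCNT4c-TDG, at least 90.8-fold higher. GTDC1 and LOC106508109 rose as well in SCNT4c-TDG (log2 fold changes 1.69 and 2.02, adjusted p = 0.0107 and 0.00589) and in SCNT4c-KG (4.55 and 2.82). LOC110256444, named olfactory receptor 5K1-like, was counted in no SCNT4c, SCNT4c-KG or SCNT8c library. It had 66.1, 32.2 and 77.3 in SCNT4c-TDG, at least 70.4-fold above SCNT4c, and 22, 12.7 and 9.53 in PFF. Its annotated transcript is 4628 bases long and has a single exon.

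Among the falls, LOC110260090 lies inside RBFOX1 on the same strand (chr3:35495188-35513295) and went from 1003, 641 and 680.0 to 53.5, 10.7 and 0 (log2 fold change -6.46 ± 1.02, adjusted p = 0.000215). RBFOX1, a splicing regulator gene, fell by 2.04 on the log2 scale. LOC110256111, an uncharacterised protein-coding model on chromosome 12 (chr12:56557554-56681595), had 4838, 5670.4 and 5145 in SCNT4c, 555, 622 and 639.8 in SCNT4c-KG and 51, 95.1 and 109 in SCNT4c-TDG. The 3 groups did not overlap, and SCNT4c-TDG was below SCNT4c-KG as well (log2 fold change -2.88, adjusted p = 0.0032). LOC110255752 fell from 888, 782 and 653 to 12.5, 22.2 and 11.5, and LOC110255703 from 186, 128 and 228 to 4.18, 6.14 and 1.53. LOC110255752 lies 130 bases from FAM124A on chromosome 11, its neighbour LOC110255754 overlaps that gene on the opposite strand, and both also fell in SCNT4c-KG, to means of 114 and 10.2.

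**Figure D4:**
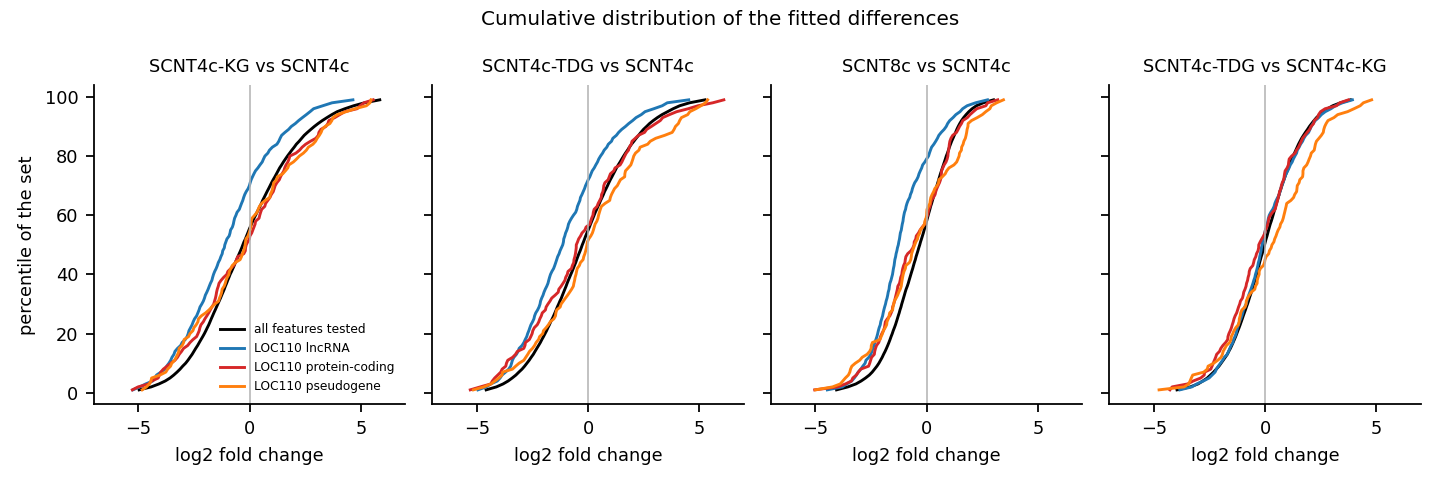
Cumulative distribution of fitted log2 fold changes (x axis) from percentile 1 to 99 of each set (y axis) in the 4 comparisons, for all features tested and for LOC110 lncRNAs, protein-coding loci and pseudogenes. The lncRNA line lies left of the line for all features in the first 3 panels, with medians of -1.11, -1.14 and -1.27 against -0.30, -0.26 and -0.31.

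The third comparison sets the untreated stages against each other. Between SCNT8c and SCNT4c, 7 members were higher and 66 were lower, against 2.62% and 3.16% of all features. The members' shares were 0.571% and 5.38%, and those of the 999 annotated lncRNAs outside LOC110 were 0.901% and 4.00%. The median log2 fold change was -1.18 in the members and -0.31 over all features. Without SCNT8c library 3 the members' median was -1.61, without library 2 it was -0.73, and on recovered reads it was -0.57 in DESeq2 and -0.66 in edgeR. The counts rest on single libraries. Without SCNT8c library 3, 451 members passed, 390 of them lower, which is 36.8% of the members against 32.4% of all features. Without SCNT8c library 1 or 2 only 4 and 3 passed, and without SCNT4c library a, b or c 6, 0 and 10 passed. In a limma fit of these 2 groups alone 0 passed, although 270 had an unadjusted p under 0.05. Without SCNT4c library b, 270 members likewise had such a p. On recovered reads 19 passed in edgeR, 8 higher and 11 lower, and 125 in DESeq2, 47 higher and 78 lower. These are 1.55% and 10.2% of the members, against 3.47% and 14.4% of all features. In the main fit the shares were 5.95% and 5.79%.

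The falls named at the 8-cell stage were chosen as those whose libraries did not overlap. LOC110256055 on chromosome 12 had 63.9, 63.8 and 100.5 in SCNT4c against 0 in all 3 libraries of SCNT8c, at least 80.9-fold lower (adjusted p = 0.0144). LOC110255536, a lncRNA on chromosome 9, had 260.3, 211 and 78 in SCNT4c against 0, 21.6 and 0 in SCNT8c (log2 fold change -5.85 ± 1.38, adjusted p = 0.0305). LOC110260458 had 158, 82.1 and 20.8 in SCNT4c against 0, 0 and 8.45 in SCNT8c, where library 3 alone held reads. LOC110256049 had 128, 8.74 and 19.9 in SCNT4c, most of it in library a, and 0 in SCNT8c. LOC110259450, a pseudogene on chromosome 1, had 50.4, 0 and 2.11 in SCNT8c against 307, 180.0 and 109.6 in SCNT4c, and reached 272, 406 and 542 in SCNT4c-TDG. Its SCNT4c-TDG values overlapped SCNT4c (adjusted p = 0.448).

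The 7 rises were LOC110261353, LOC110255757, LOC110256147, LOC110261977, LOC110257896, LOC110261313 and LOC110256946. LOC110261353 on chromosome 6, a single-exon gene named F-box only protein 27-like, stood at 2634, 1697 and 3045 in SCNT4c, 7709, 6703 and 5745 in SCNT8c, 9115, 8301 and 6469 in SCNT4c-KG and 1412, 1222 and 942 in SCNT4c-TDG. It was higher in SCNT8c and SCNT4c-KG and lower in SCNT4c-TDG than in SCNT4c (adjusted p = 0.0189, 0.000321 and 0.0128). LOC110255757, a lncRNA on chromosome 11, had 954, 571 and 564 in SCNT4c against 2199, 1716 and 1244 in SCNT8c (adjusted p = 0.0313). It reached 6406, 8087 and 5964 in SCNT4c-TDG. LOC110261313, a zinc finger gene opposite to ZNF304, rose from 12.6, 17.5 and 8.3 to 166, 136 and 31.7 (adjusted p = 0.0355), with library 3 lowest. LOC110256147 rose from 207, 251 and 227 to 672, 859 and 414 (adjusted p = 0.0454).

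The calls of these SCNT8c loci were unstable. Leaving aside LOC110260458 and LOC110256049, 8 SCNT8c differences were recomputed, and all 8 lost the call under some alternative. LOC110256147 lost it under 8 of 15, LOC110261313 and LOC110255536 under 7 of 15, and LOC110256055 under 2 of 14. All 8 kept it without SCNT8c library 3, where LOC110261353 rose by 1.59, LOC110261313 by 3.51 and LOC110256147 by 1.73 on the log2 scale, LOC110255536 fell by 5.10 and LOC110259450 fell by 4.68.

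The direct comparison of the treatments gave 45 members higher and 79 lower in SCNT4c-TDG than in SCNT4c-KG, against 7.07% and 9.13% of all features. As shares of the members these are 3.67% and 6.44%. With the same total set in each library the split was 74 higher and 56 lower. Leaving out SCNT4c-TDG library 1, 2 or 3 left 20, 18 and 18 higher and 46, 46 and 42 lower. Without SCNT4c-KG library 1 the split was 43 higher and 41 lower, without library 2 it was 37 and 47, and without library 3 it was 36 and 64. The median was -0.13 in the members and -0.02 over all features, and under equal totals both shifted up, to 0.20 and 0.32. Without SCNT4c-KG library 1 the medians were 0 and 0.02, and without SCNT4c-TDG library 1 they were -0.02 and -0.03, so the gap rested on single libraries. Without SCNT4c-KG library 3 they were -0.22 and -0.11.

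Among the members higher in SCNT4c-KG were the ribosomal and tripartite motif entries described above. LOC110255769, a 40S ribosomal protein S15a pseudogene on chromosome 11, had 203, 193 and 189.5 in SCNT4c-KG and 3.34, 10.7 and 4.59 in SCNT4c-TDG, which did not overlap. LOC110256009 on chromosome 12, keratin-associated protein 3-2, had 528, 831 and 697 and 87, 4.6 and 32.9 (log2 fold change -4.72 ± 1.02, adjusted p = 0.00553). LOC110259778, a lncRNA on chromosome 2, had 926, 621 and 475 in SCNT4c-KG, 19.2, 10.7 and 36.7 in SCNT4c-TDG and 78.9, 40.2 and 88 in SCNT4c (log2 fold change -4.97 ± 0.66, adjusted p = 0.000204). LOC110256866 kept a single read in SCNT4c-TDG.

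Higher in SCNT4c-TDG were the olfactory receptor 5K1-like locus LOC110256444, LOC110257337 and 3 noncoding entries. LOC110259424, a lncRNA 1320 bases from SLF1 on chromosome 2, had 91.2, 54.5 and 84.9 in SCNT4c-TDG and 1 read in SCNT4c-KG, a ratio of 141-fold (95% counting interval 25.3 to 5575). LOC110257342, a pseudogene inside FBXW11 on the same strand, had 71.1, 47.6 and 48.2 against 1 read, and FBXW11 itself did not differ past the threshold (adjusted p = 0.126). LOC110256700, a lncRNA on chromosome 14, had 171, 184 and 197 in SCNT4c-TDG and 6.53, 52 and 0 in SCNT4c-KG (log2 fold change 4.65 ± 1.05, adjusted p = 0.00741).

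Products named as one family were then described together. These families were chosen after their values were seen, so their counts are descriptive, and they stand beside the 17.6% higher and 19.6% lower of all features in SCNT4c-KG and the 15.7% and 17.6% in SCNT4c-TDG. All 5 ribosomal protein entries, 4 of them transcribed pseudogenes, had more in SCNT4c-KG than in SCNT4c, by 3.61 to 7.59 in log2, and 1 of them was higher in SCNT4c-TDG. Of these 5, 3 had met the limit of 10 through SCNT4c-KG alone, LOC110262272 and LOC110255769 among them, so their direction was fixed by the limit. Of the parent genes, RPS27 and RPS15A were higher in SCNT4c-KG as well, at 5.14 and 7.47. The parents of the other entries were not examined. In SCNT4c-TDG RPS27 and RPS15A rose too (2.45 and 5.97, adjusted p = 0.000101 and 2.29e-05), while the log2 fold changes of LOC110262272 and LOC110255769 were 0.70 and 0.52. LOC110261249 is a FUBI ubiquitin-like entry inside FOXJ3, like part of the product of the ribosomal gene FAU. It had 3365, 3249 and 2311 in SCNT4c-KG, 294, 190.5 and 276 in SCNT4c against 159, 137 and 159.9 in SCNT4c-TDG. FAU was higher in both treated groups (log2 fold changes 2.90 and 2.27), and FOXJ3 had log2 fold changes of -0.90 in SCNT4c-KG and -1.0 in SCNT4c-TDG (adjusted p = 0.0306 and 0.0201).

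Histones package DNA, and 15 members were histone genes, 14 of them on chromosome 7. In SCNT4c-KG 7 of them rose and none fell, and in SCNT4c-TDG 5 rose and 1 fell. The 7 include LOC110261668, which met the limit of 10 through SCNT4c-KG alone, and LOC110261666, whose libraries overlapped between the groups. LOC110261483, histone H2A type 1 (chr7:20729940-20730466), stood at 56, 75.2 and 39.9 in SCNT4c, 2008, 1924 and 1396 in SCNT4c-KG, 877, 739 and 1018 in SCNT4c-TDG and 27.1, 39.1 and 25.4 in SCNT8c. The treated groups did not overlap with the untreated ones (log2 fold change 4.97 ± 0.39, adjusted p = 2.71e-07 in SCNT4c-KG). The H2B genes LOC110261486 and LOC110261670 and the H4 gene LOC110261477 rose in SCNT4c-KG to means of 121, 140.0 and 154. LOC110261478, histone H1.1, passed in SCNT4c-TDG alone, at 401, 373 and 301 against 133, 64.7 and 23.2 (adjusted p = 0.0132). Replication-dependent histone mRNAs mostly lack a poly(A) tail and their coding sequences are alike, so both the priming and the placing of their reads are uncertain.

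The longest run of neighbouring calls held histone genes. Within 113 kb on chromosome 7 (chr7:20661142-20773986), 6 members spaced by at most 50 kb passed in SCNT4c-TDG, 5 higher and 1 lower. The lower one was LOC110261475, at the edge of the histone genes LOC110261478, LOC110261483, LOC110261486 and LOC110261477 and the pseudogene LOC110261480. In SCNT4c-KG, LOC110261483, LOC110261486, LOC110261480 and LOC110261477 were higher as well (log2 fold changes 4.97, 3.52, 4.26 and 3.54). LOC110261475 was lower there too (-6.71), and LOC110261478 did not pass. Another run, LOC110261670, LOC110261666 and LOC110261668, lay at chr7:21219729-21227023, with more in SCNT4c-KG than in SCNT4c. Of its loci, LOC110261668 had met the limit of 10 through SCNT4c-KG alone. LOC110261666 overlapped between groups, since SCNT4c library c had 113 against 4.73 and 6.99. On chromosome 1, LOC110262249 and LOC110262255 both fell in SCNT4c-KG. LOC110262249 (log2 fold change -2.78) overlaps NAA30 and AP5M1 on the opposite strand. NAA30 fell too (-2.785, adjusted p = 1.92e-05), so their reads cannot be told apart, and AP5M1 did not pass (-0.76, adjusted p = 0.086). No rate of such runs over all features was computed.

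Olfactory receptors, the odour sensors of nasal neurons, gave 21 members. In SCNT4c-KG 12 were lower and 1 higher, in SCNT4c-TDG 7 were lower and 2 higher, and the medians were -2.70 and -2.11 in log2. These counts include LOC110261720, which met the limit of 10 through SCNT4c alone and is among the falls of both groups, and LOC110256444, which met it through SCNT4c-TDG alone and is 1 of the 2 rises there, so their directions were fixed by the limit. Of these 21, 19 were at 0 in PFF. Zinc finger genes, many of which encode DNA-binding repressors, gave 19 members, mostly on chromosome 6. In SCNT4c-KG 5 rose and 1 fell, and in SCNT4c-TDG 6 rose and 2 fell. LOC110261292, zinc finger protein OZF-like, rose from 1129, 1383 and 1379 to 5002, 6417 and 4947 in SCNT4c-KG (log2 fold change 2.07 ± 0.31, adjusted p = 0.000138). LOC110261306, a zinc finger gene, fell in SCNT4c-TDG, from 968, 1051 and 947 to 360.4, 377 and 308 (adjusted p = 0.00606).

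**Figure D5:**
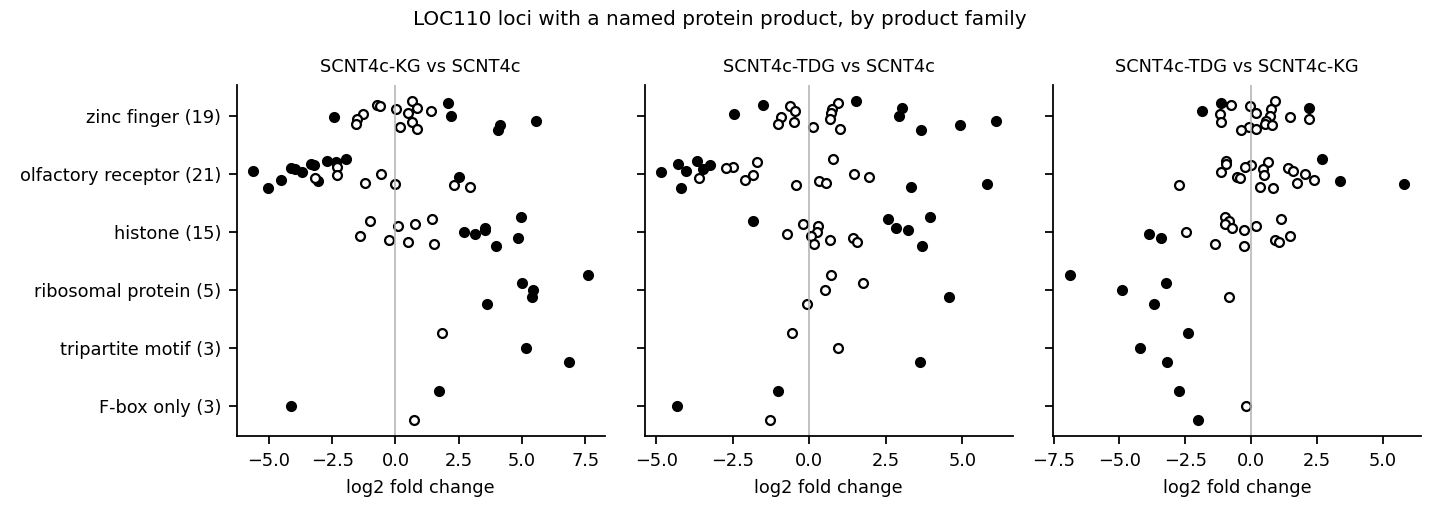
Fitted log2 fold change (x axis) of each LOC110 locus with a named protein or pseudogene product, by product family with its number of loci (y axis), in 3 comparisons. Filled points passed the test and open points did not. All 5 ribosomal points are filled and right of 0 in SCNT4c-KG, 3 of them from loci that met the limit of 10 through that group alone, and 12 of 21 olfactory receptor points are filled and left of 0, 1 of them from a locus that met the limit through SCNT4c alone.

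Other abundant protein-coding members followed several patterns. LOC110259883, mucin-3B-like on chromosome 3, had 7913, 6639 and 7836 in SCNT4c, 2254, 1938 and 1580.3 in SCNT4c-KG and 760.1, 601 and 467 in SCNT4c-TDG. The 3 groups did not overlap, and each difference passed (adjusted p = 0.000958, 5.77e-06 and 0.00727). LOC110260827 on chromosome 5, which overlaps PTPRQ and the muscle regulators MYF5 and MYF6 on the opposite strand, fell in SCNT4c-TDG and SCNT8c, to means of 715 and 1259.7 from 4264. LOC110259255, named oocyte-secreted protein 1-like, passed in no comparison and had means of 1575 in SCNT4c and 1679.9 in SCNT4c-TDG. LOC110257392, opposite to TOP1 and PLCG1, did not pass either, with 2302, 864 and 602 in SCNT4c, where library a was the highest.

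Donor cells carried little of the set. In PFF 622 of the 1227 members (50.7%) were at 0 in all 3 libraries, against 22.8% of all features, and 941 had a PFF mean under 10. The share at 0 was 33.4% in other annotated lncRNAs, 33.6% in other LOC entries, 38.8% in assembled transcripts and 43.3% in other pseudogenes. The group was chosen for its level in embryos, so no test was made. Only 83 members had a PFF mean above that of every embryo group, against 5068 of all 18942 features. The highest in PFF was LOC110260088, named eukaryotic translation initiation factor 3 subunit C, at 8631, 8818 and 8538. It was also at 9501, 11449 and 12881 in SCNT4c-KG, above 2553, 3443 and 4058 in SCNT4c (log2 fold change 1.76 ± 0.33, adjusted p = 0.000748). LOC110257452, a lncRNA on chromosome 17, followed at 8551, 8717 and 7951 in PFF. In embryos it was highest in SCNT4c-TDG, at 3433, 4455 and 3149 against 564, 505 and 823 in SCNT4c (adjusted p = 5.47e-05).

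LOC110257905 on Y (chrY:10163547-10165732), named thymosin beta-4-like after a protein that binds actin, had 4820.5, 4779 and 4775 in PFF. In embryos it stood at 186, 194 and 126 in SCNT4c, 434, 379.9 and 204 in SCNT8c, 3811, 2489.8 and 3367 in SCNT4c-KG and 4374, 5448 and 5039 in SCNT4c-TDG. Every treated library exceeded every untreated embryo library, and both rises passed (log2 fold changes 4.25 and 4.89, adjusted p = 3.12e-07 and 2.03e-07). TMSB4X, the X-linked gene of thymosin beta-4, was listed at means under 1 in every group. Whether reads of the X and Y copies were counted together was not tested. LOC110256808 and LOC110261048 completed the 5 highest in PFF, at means of 2281 and 1013, and passed in no comparison of embryos. The 15 members on Y had 3 rises and 4 falls in SCNT4c-KG, and 4 and 5 in SCNT4c-TDG, against the same shares of all features (17.6% and 19.6%, 15.7% and 17.6%).

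Within groups, the median SD of the members on the log2 scale was 0.66 in SCNT4c, 0.87 in SCNT4c-KG, 0.60 in SCNT4c-TDG and 1.46 in SCNT8c, against 0.58, 0.62, 0.44 and 1.04 over all features. The SD varied with level, and the members stood lower. At a mean of 10 to 50 it was 0.90, 1.33, 0.77 and 1.59 against 0.98, 1.18, 0.71 and 1.44. At a mean of at least 500 it was 0.28, 0.33, 0.39 and 1.31 against 0.29, 0.28, 0.22 and 0.66. By mean level, 571 of 1227 members (46.5%) were highest in SCNT4c, 290 in SCNT4c-KG, 186 in SCNT4c-TDG and 180 in SCNT8c. Over all features SCNT4c was highest for 34.2%, in other annotated lncRNAs for 42.5% and in assembled transcripts for 40.1%. Just inside the limit of 10 stood LOC110259999, LOC110261273 and LOC110257008, with means of 10.03, 10.04 and 10.04. Just outside stood LOC110257329, LOC110255274 and LOC110257497, at 9.98, 9.97 and 9.96.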

How the data were processed

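RNA-seq of 12 libraries of SCNT embryos and 3 of PFF was analysed. The deposited values are a normalised signal that the authors made with Trimmomatic 0.39, STAR 2.5.3a on Sscrofa11.1, StringTie 2.1.2, HTSeq and DESeq2, keeping unique reads. Strand setting and batches are not given in the sources used here. Every value was a whole multiple of the value of 1 read in its library, within 0.02 reads, so reads were recovered by division, 12354649 to 22868038 per library. Depth sets counting error only, and intervals and floors (3 reads over a group) cover no more than that.

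Features whose embryo mean reached 10 were tested as log2(value + 1) with limma 3.58.1 in R 4.3.3, with an intensity trend, in 1 fit of the 12 libraries and Benjamini-Hochberg adjustment over 18942 features. Fold changes of low loci are understated on this scale. A call is an adjusted p below 0.05 with more than 2-fold change. With 3 against 3 libraries, an exact permutation test of 1 locus could not pass. Alternatives were pseudocounts of 0.1 and 10, equal totals, quantile normalization, a mean limit of 50 or none, edgeR 4.0.16, DESeq2 1.42.0, 2-group fits, a replicate block, no fold limit and each library left out. On simulated data with few changed features, all in 1 group, the limma fit made few false calls but missed most changes. Many more features were called in the treatment comparisons here, so neither rate need carry over. A locus that was not called may still differ. Deviations of same-numbered treated and SCNT8c libraries from their group means had r from -0.061 to 0.195. Differently numbered libraries were not compared, so this cannot decide whether the numbers pair them. Loci, types and promoters came from NCBI annotation release 106, after removal of 241 repeated IDs, with Python 3.11.15.

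Loci named were the 10 highest, the 5 largest rises and falls per comparison (called, replicates apart, the higher group averaging at least 50), the 5 highest in PFF, protein-coding loci with a mean of at least 500, runs within 50 kb, 3 on each side of the limit, and loci that an earlier account of the series named. Members and lists were chosen with earlier results of these data known.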

Additional observations from a re-analysis of the deposited data

How the results depend on the processing

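Leaving aside loci that met the limit of 10 through 1 group alone, 28 named differences were recomputed in 416 fits, of which 372 kept direction and call, 44 lost the call and 0 reversed. All 44 losses were in SCNT8c against SCNT4c, in all 8 differences named there. The number of LOC110 loci called in SCNT4c-KG against SCNT4c was 399, fell to 232 with a minimum mean of 50, which left 494 loci to test, and ranged from 270 to 359 with 1 library left out. In SCNT4c-TDG against SCNT4c it was 357, rose to 571 in a fit of the 2 groups alone, and ranged from 240 to 279 with 1 library left out. In SCNT8c against SCNT4c it was 73, and became 125 with DESeq2 and 19 with edgeR on recovered reads, 28 with all features above 0, 46 and 127 with pseudocounts of 0.1 and 10, 0 in a fit of the 2 groups (270 at an unadjusted p under 0.05), and 0 (without SCNT4c library b) to 451 (without SCNT8c library 3) with 1 library left out. In SCNT4c-TDG against SCNT4c-KG it was 124, and became 187 with DESeq2 and 234 in a fit of the 2 groups, and ranged from 60 to 100 with 1 library left out. Of the members, 124, 187 and 234 are 10.1%, 15.2% and 19.1%, against 16.2%, 20.9% and 25.2% of all features. In SCNT4c-TDG against SCNT4c, 357 and 571 are 29.1% and 46.5%, against 33.3% and 46.3%. In SCNT4c-KG against SCNT4c, 399 and 232 are 32.5% and 47.0% of the loci tested, against 37.2% and 49.5%. The cause of the shifts in these counts was not tested, except that the limit of 50 tests fewer loci.

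With the replicate block, 213 loci were called in SCNT4c-TDG against SCNT4c-KG, compared with 234 in the same 2 groups without it. For the 3 comparisons with SCNT4c no paired analysis was possible because its libraries carry no single number. The numbers mark no shared origin in the labels.

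The share of higher calls in SCNT4c-TDG against SCNT4c-KG moved from 36.3% to 56.9% with equal totals, in which the median of all features was 0.32 against -0.02, and in SCNT4c-TDG against SCNT4c it was 32.1% with equal totals. The members' median less that of all features stayed between -0.64 and -0.61 in SCNT4c-KG and between -0.77 and -0.72 in SCNT4c-TDG under these scalings and quantile normalization, but was -0.39 and -0.46 with a pseudocount of 10 and -0.81 and -1.03 with a minimum mean of 50. In SCNT8c it was -0.87, -0.55 with that pseudocount, -1.12 with that minimum, -0.48 without SCNT8c library 2 and -1.35 without library 3. The share of loci at 0 in PFF was 50.7%, and 55.9% with a minimum mean of 50. Spread between SCNT8c libraries was wide at any level, with a median log2 SD of 1.31 in members with a mean of at least 500 and 1.59 in the 733 with a mean under 50.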
